A study of Arabidopsis thaliana with 12 samples.

Results

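The transcripts of 4 enzymes of plastid carbon metabolism were followed in the toc90 mutant of Arabidopsis thaliana: phosphoribulokinase (PRK, AT1G32060), sedoheptulose-1,7-bisphosphatase (SBPASE, AT3G55800), pyruvate, phosphate dikinase (PPDK, AT4G15530) and the NADP-dependent malate dehydrogenase of the chloroplast (AT5G58330). They were chosen by name, as the genes of this kind that lay on a probe annotated with exactly 1 gene. Each of the 4 had 1 such probe, out of 692 single-gene probes and 3439 probes in all. The samples were 6 readings of the toc90 mutant and 6 readings of the wild type (WT), both in ecotype Columbia 0 and numbered 1 to 6 in each group. Per the labels, the mutant is impaired in bringing proteins across the outer envelope of the chloroplast. The labels name no allele, tissue, age or growth condition, nor do they state whether readings came from separate plants, so p-values measure the spread between these readings, which may be technical. No annotated probe listed TOC90, and the mutated gene was therefore not analysed here. Each value is the brightness of 1 probe on an array hybridised with total RNA, on a linear scale with a floor at 0 whose processing is unknown. Precision is limited by the number of arrays.

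The enzymes stand at connected points of chloroplast metabolism. SBPASE and PRK belong to the regeneration phase of the Calvin cycle: SBPASE removes a phosphate from sedoheptulose bisphosphate, and PRK phosphorylates ribulose 5-phosphate to the bisphosphate that accepts carbon dioxide. PPDK converts pyruvate to phosphoenolpyruvate, a starting compound of the shikimate pathway. In Arabidopsis 1 gene gives rise to a plastid and a cytosolic form of the PPDK protein. The NADP-malate dehydrogenase turns oxaloacetate to malate in the light and so lets reducing power leave the chloroplast, a route known as the malate valve. PRK, SBPASE and the malate dehydrogenase are switched on by thioredoxins in the light. All of these enzymes are encoded in the nucleus, and their plastid forms are made in the cytosol and imported. TOC90 is a member of the TOC159 family of GTPases that receive such precursors at the outer envelope.

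The arrays of the groups differed in their dim probes, which touches each comparison that follows. Between 20.3% and 33.4% of probes were listed at 0 in toc90 readings, against 13.5% to 17.3% in WT readings. The median probe value was 0.0593 to 0.0687 in toc90 readings and 0.151 to 0.157 in WT readings. The mean value ran over similar ranges, 0.736 to 1.06 in toc90 readings and 0.768 to 1.03 in WT readings. The cause of the difference in dim probes was not tested. Differences were therefore given on the deposited scale with zeros included, and from a limma fit on quantile-normalized log2 values in which zeros were missing.

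In the Calvin cycle, the PRK transcript was the one member with values far above the floor, and its groups overlapped. PRK values in toc90 were 1.66, 2.11, 3.67, 3.01, 1.40 and 1.42 for numbers 1 to 6. In WT they were 1.74, 2.09, 3.47, 2.17, 2.44 and 2.66. The toc90 readings thus spread over a wider range than those of WT, with 3 of them below every WT reading and 1 above every WT reading. PRK averaged 2.21 ± 0.932 in toc90 and 2.43 ± 0.600 in WT (SD, n = 6 each), a difference within the spread of the readings (two-sided exact permutation p = 0.639).

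The sign of the PRK difference was not the same at all numbers. It was lower in toc90 at 3 of the 6 numbers. With neighbouring numbers averaged, the toc90 value was 1.88 against 1.92 in WT for numbers 1 and 2, and 3.34 against 2.82 for numbers 3 and 4. For numbers 5 and 6 it was 1.41 in toc90 against 2.55 in WT, so that the lower mean of toc90 rested on this last pair. In the limma fit the log2 difference of PRK was -0.43 ± 0.21 (SE, 95% interval -0.88 to 0.02, limma adjusted p = 0.153). The interval holds no difference as well as a fall of 0.88 in log2, and it does not show that PRK was alike in both groups.

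The direction of PRK also turned with the scaling. With each column set to the same median, its log2 difference was 0.50 (limma adjusted p = 0.0888). With log2 values as deposited it was -0.20 (limma adjusted p = 0.597), smaller than in the quantile-normalized fit. Values divided by the column median averaged 35.4 ± 13.5 in toc90 and 15.8 ± 3.89 in WT (SD, n = 6 each, p = 0.00216 by a two-sided exact permutation test, the smallest it can give). The median that enters this scaling is set by dim probes, which were lower in toc90. No direction is given here for PRK.

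SBPASE, the other Calvin cycle enzyme, was listed at 0 in all 6 toc90 readings and in all 6 WT readings. This gave no test and no fold change. It was 1 of 106 probes, 3.08% of all 3439, that were at 0 throughout. A value of 0 can be a failed estimate as well as a low level, so nothing was read from it about the SBPASE transcript.

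**Figure D1:**
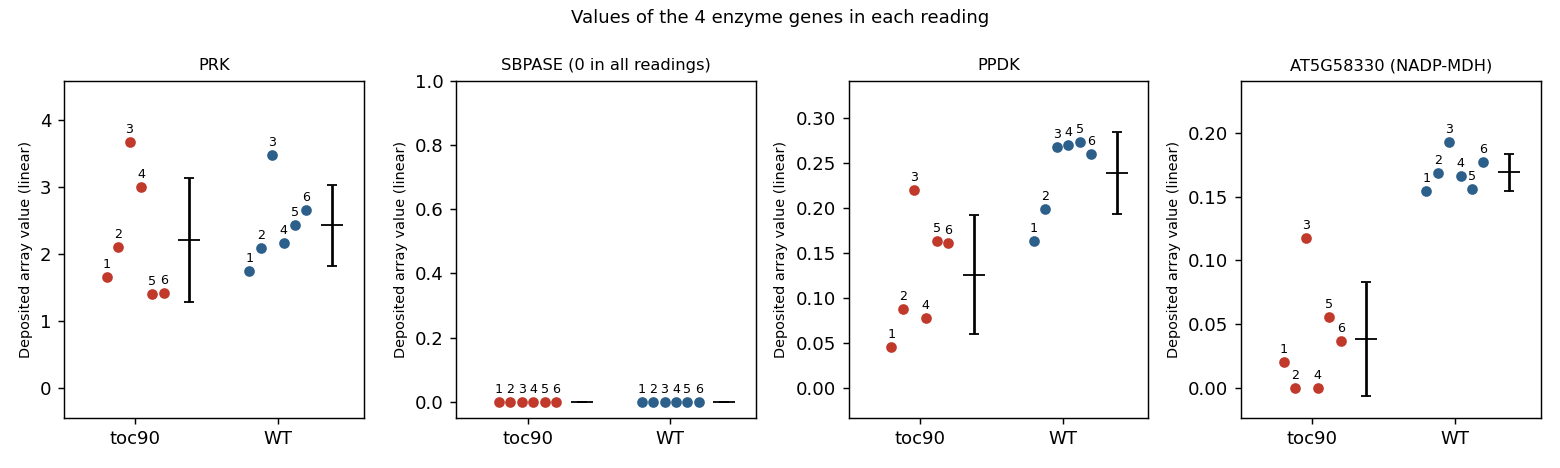
Deposited array values (linear scale, vertical axes differ by panel) of PRK, SBPASE, PPDK and AT5G58330 in toc90 and WT readings, 1 point a reading labelled with its number, and the mean ± SD of 6 readings in black. PRK readings overlap, SBPASE is at 0 throughout, 5 of 6 toc90 readings of PPDK lie below every WT reading, and all 6 do for AT5G58330.

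The PPDK probe read closer to the floor, and on the deposited scale it was lower in toc90. Its toc90 values were 0.0452, 0.0875, 0.220, 0.0781, 0.163 and 0.161 for numbers 1 to 6. Its WT values were 0.164, 0.199, 0.268, 0.270, 0.273 and 0.260. Below every WT reading lay 5 of the 6 toc90 readings, while number 3 of toc90 stood above numbers 1 and 2 of WT. At each of the 6 numbers the toc90 value was below the WT value of the same number. PPDK averaged 0.126 ± 0.0661 in toc90 and 0.239 ± 0.0460 in WT (SD, n = 6 each), a ratio of 0.527 (two-sided exact permutation p = 0.0108, Benjamini-Hochberg adjusted over 3333 probes 0.0336).

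The size of this difference was close to the median of probes in the same range of WT values. Of all 3333 probes with a value above 0, 40.7% were lower in toc90 at an exact permutation p under 0.05 and 3.66% were higher. Among the 615 probes with a WT mean from 0.2 to 0.4, where PPDK lies, the share that was lower was 59.5%. The log2 ratio of the group means was -0.92 for PPDK and -0.92 for the median of those 615 probes. After quantile normalization with zeros kept, PPDK averaged 0.179 ± 0.0694 in toc90 and 0.182 ± 0.0402 in WT (SD, n = 6 each, exact permutation p = 0.926 two-sided). In the limma fit its log2 difference was -0.48 ± 0.33 (SE, 95% interval -1.20 to 0.24, limma adjusted p = 0.319).

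The toc90 readings of PPDK also varied more among themselves than those of WT. Numbers 1 and 2 of toc90 averaged 0.0664, numbers 3 and 4 averaged 0.149 and numbers 5 and 6 averaged 0.162. The averages in WT were 0.181, 0.269 and 0.266. Numbers 1 and 2 were thus the lowest pair in both groups, and the gap between the groups was similar in the 3 pairs, at -0.115, -0.119 and -0.104. With 3 averages in each group the exact permutation p was 0.1, the smallest that 20 assignments allow. Neighbouring WT readings deviated together (r of 0.43, 0.50 and 0.52), so the 6 readings of a group may not be independent.

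AT5G58330, the malate dehydrogenase of the malate valve, had the clearest separation of the 4 genes on the deposited scale. Its toc90 values were 0.0202, 0, 0.118, 0, 0.0556 and 0.0369 for numbers 1 to 6. Its WT values were 0.154, 0.169, 0.192, 0.166, 0.156 and 0.177. The WT readings lay close together, and each of the 6 toc90 readings lay under the lowest of them. Number 3 was the highest of both groups, and numbers 2 and 4 of toc90 were listed at 0.

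AT5G58330 averaged 0.0384 ± 0.0444 in toc90 and 0.169 ± 0.0143 in WT (SD, n = 6 each), a WT mean 4.41 times the toc90 mean (p = 0.00216 by a two-sided exact permutation test, the smallest it can give, and 0.00983 adjusted over 3333 probes). Both the SD in toc90 and the fold depend on the readings at 0, whose true level is unknown. Without number 3 of toc90 the WT mean was 7.51 times the toc90 mean, and without number 2 or 4 of toc90 it was 3.67 times. In pairs, its toc90 averages were 0.0101, 0.0588 and 0.0462, against 0.161, 0.179 and 0.166 in WT. The exact permutation p of these 3 against 3 averages was 0.1, the smallest possible.

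Separation of this kind was common on these arrays. In 20.6% of the 3333 probes the highest toc90 reading was under the lowest WT reading, and in 1.44% the lowest toc90 reading was over the highest WT reading. Among the 721 probes with a WT mean from 0.1 to 0.2, the range of AT5G58330, that share was 31.5%, and 60.1% were lower at an exact permutation p under 0.05. For comparison it was 35.8% in the range of PPDK, a pattern that PPDK itself did not show. The log2 ratio of the means of AT5G58330 was -2.14, against a median of -1.18 and a lower quartile of -2.02 in its range. Without number 2 or number 4 of toc90, each at 0, it was -1.88, which is above that quartile as computed from all readings. PRK, at -0.13, stood near the median of -0.18 for the 109 probes from 1.6 to 3.2. Zeros in exactly 2 toc90 readings and no WT reading occurred in 10.1% of all 3439 probes.

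**Figure D2:**
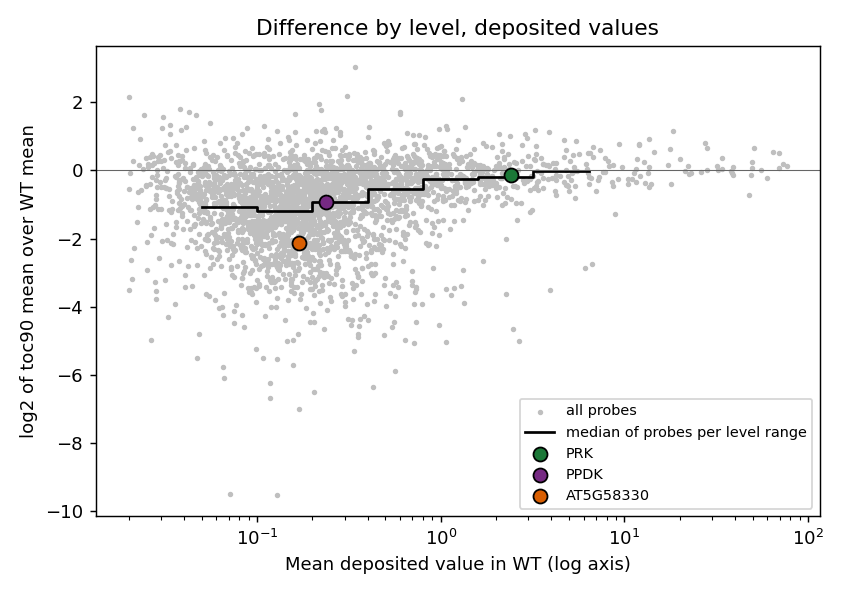
Log2 ratio of the toc90 mean over the WT mean of deposited values against the WT mean (log axis) for 2829 probes, with 610 left out because their WT mean was at most 0.02 or their toc90 mean was 0. The black steps are the median of each level range, on which PRK and PPDK lie closely, with AT5G58330 below it at -2.14 against -1.18. Among probes of the same ID place and WT range the median is -1.61 for AT5G58330. For PPDK that median is -0.40, and PPDK at -0.92 lies below the lower quartile of -0.82.

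Where a probe falls in the ID order also bore on this comparison. Blocks of 96 consecutive probe IDs, taken in runs of 3, differ in how often probes are lower in toc90. AT5G58330 lies in the second place, and of the 262 probes that share its place and its WT range, 45.0% had no toc90 reading as high as any WT reading. PPDK lies in the first place, where the share was 13.5% of the 208 probes in its range. Among the probes of the same place and range, the log2 ratio of the means had a median of -1.61 and quartiles of -2.28 and -0.97 for AT5G58330, which at -2.14 lay within them. For PPDK, at -0.92, the median was -0.40 and the quartiles were -0.82 and -0.05, so PPDK lay below the lower quartile. When quantile normalization was done within each place, the log2 difference of AT5G58330 moved to -0.56 (limma adjusted p = 0.234) and that of PPDK to -0.86 (limma adjusted p = 0.0699). Between the 2 genes, AT5G58330 had the larger difference when all probes were normalized together, and PPDK when each place was normalized on its own. The places were taken from the probe IDs alone. Position on the array, if the IDs follow it, and the gene content of the places cannot be told apart.

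In the limma fit over all probes, none of the 3 testable genes passed an adjusted p of 0.05. The log2 difference of AT5G58330 was -0.85 ± 0.32 (SE, 95% interval -1.56 to -0.15, unadjusted p = 0.0228, limma adjusted p = 0.0783), with its 2 zeros left out. That fit called 23.9% of the 2687 probes tested, 17.0% as lower and 6.92% as higher in toc90. Over all probes tested the median log2 difference was -0.21. Set against that median, AT5G58330 stood at -0.65, PPDK at -0.27 and PRK at -0.22. PRK, with an unadjusted limma p of 0.0583, and PPDK, with 0.174, did not pass before adjustment either.

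For AT5G58330 the call depended on the scaling and the direction did not. With median scaling its log2 difference was -1.08 (limma adjusted p = 0.0418), a setting that called 12.6% of probes lower and 16.0% higher. With log2 values as deposited it was -1.84 (limma adjusted p = 0.00651), where 33.3% were called lower and 3.16% higher. With log2 values as deposited PPDK was also called, at -1.09 (limma adjusted p = 0.0332). Leaving out number 3 of toc90, its highest reading, gave -1.11 for AT5G58330 (limma adjusted p = 0.0252), and leaving out number 1 gave -0.50 (0.138). Its difference was below 0 in each of the settings in which it could be fitted.

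**Figure D3:**
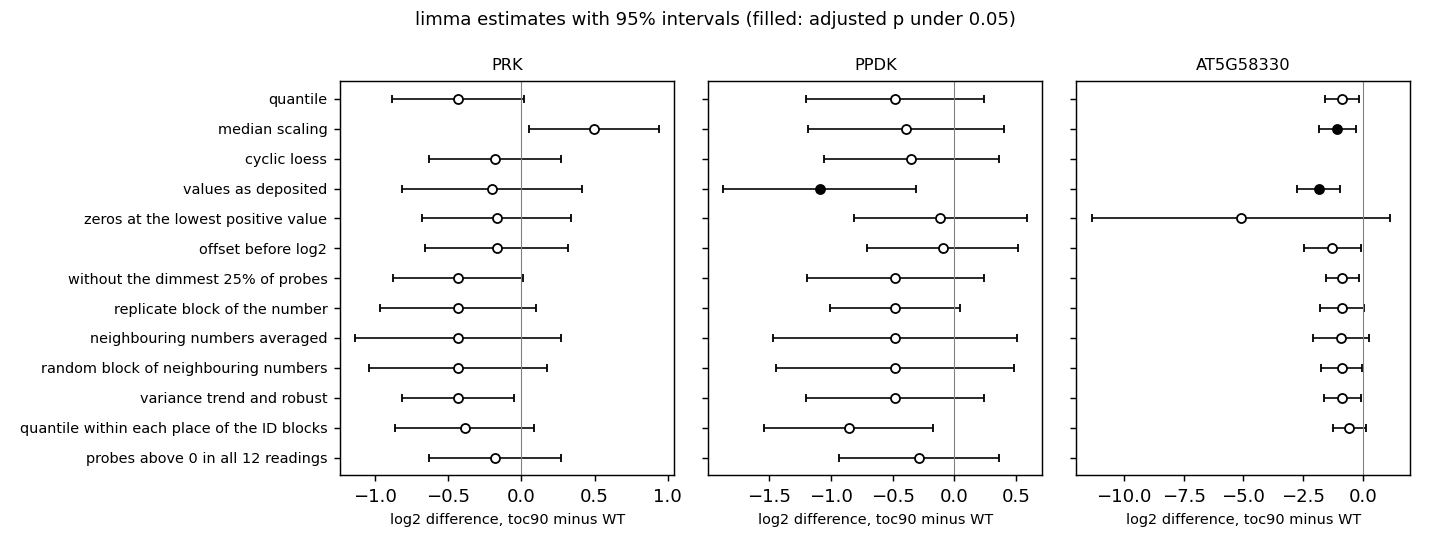
Log2 differences of toc90 minus WT (limma, horizontal axes, 95% intervals) for PRK, PPDK and AT5G58330 under each setting that kept all readings, with filled points where the adjusted p was under 0.05. PRK moves from -0.43 to 0.50 with median scaling, and AT5G58330, with no value in the settings that need all 12 readings above 0, is below 0 in each of the others.

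The ratio of 2 genes within a reading does not change when a whole column is multiplied by a factor. With SBPASE giving none, 3 ratios could be formed. The log2 ratio of PRK over AT5G58330 was 6.36, 4.96, 4.66 and 5.27 in numbers 1, 3, 5 and 6 of toc90. In WT it was 3.50, 3.63, 4.17, 3.70, 3.97 and 3.91 for numbers 1 to 6. All 4 toc90 ratios lay above every WT ratio, and the share of other probe pairs that separate so was not computed. AT5G58330 by itself separated fully on the deposited scale, as did 45.0% of the 262 probes of its place and WT range. The ratios averaged 5.31 ± 0.743 in toc90 (SD, n = 4) and 3.81 ± 0.248 in WT (SD, n = 6), a difference of 1.5 in log2. The two-sided exact permutation p was 0.00476, the smallest that 210 assignments allow, and 0.00714 adjusted over 3 ratios. The 2 toc90 readings with AT5G58330 at 0 gave no ratio.

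The ratio of PPDK over AT5G58330 compares a pair of probes that both read far below PRK. Their WT means of 0.239 and 0.169 lay above the median probe value of 0.151 to 0.157, while AT5G58330 in toc90 read near the floor. The log2 ratio was 1.16, 0.905, 1.55 and 2.13 in numbers 1, 3, 5 and 6 of toc90, and in WT 0.0875, 0.240, 0.477, 0.696, 0.810 and 0.552. Again no toc90 ratio overlapped with WT, and the smallest gap was between number 3 of toc90 and number 5 of WT. The mean was 1.44 ± 0.532 in toc90 (SD, n = 4) and 0.477 ± 0.273 in WT (SD, n = 6), a difference of 0.96 in log2. Its two-sided exact permutation p was 0.00476, again the smallest possible, and 0.00714 adjusted over 3 ratios. For comparison, log2 ratios of group means over all readings, zeros included, were taken for probes sharing the WT range and place of each gene. Their medians are 1.22 apart for PPDK and AT5G58330 and 1.40 apart for PRK and AT5G58330. On that measure PPDK itself stood at -0.92, PRK at -0.13 and AT5G58330 at -2.14. The 0.96 and 1.5 measured within readings leave out toc90 readings at 0, so they are not on the same measure. By WT range alone the medians are 0.257 apart for PPDK and AT5G58330 and 0.993 apart for PRK and AT5G58330. For PRK and PPDK the medians are 0.184 apart by range and place and 0.736 by range alone. As the measures differ, nothing particular to AT5G58330 is read from the ratios. With neighbouring numbers averaged, both ratios with AT5G58330 had an exact permutation p of 0.1, the smallest that 3 against 3 allow. A constant taken off each value would change these ratios.

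The ratio of PRK over PPDK did not pass. It was 5.20, 4.59, 4.06, 5.27, 3.10 and 3.14 for numbers 1 to 6 of toc90, and in WT 3.41, 3.39, 3.70, 3.01, 3.16 and 3.35. Numbers 1 to 4 of toc90 lay above every WT ratio, and numbers 5 and 6 lay within the WT range. The means were 4.23 ± 0.962 in toc90 and 3.34 ± 0.236 in WT (SD, n = 6 each), a difference of 0.89 in log2 (two-sided exact permutation p = 0.0606, adjusted over 3 ratios 0.0606). Without number 5 or number 6 of toc90, the readings that overlap with WT, the exact permutation p was 0.0195 in each case. Leaving out any other single reading gave an exact permutation p from 0.0736 to 0.115. With neighbouring numbers averaged it was 0.4.

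**Figure D4:**
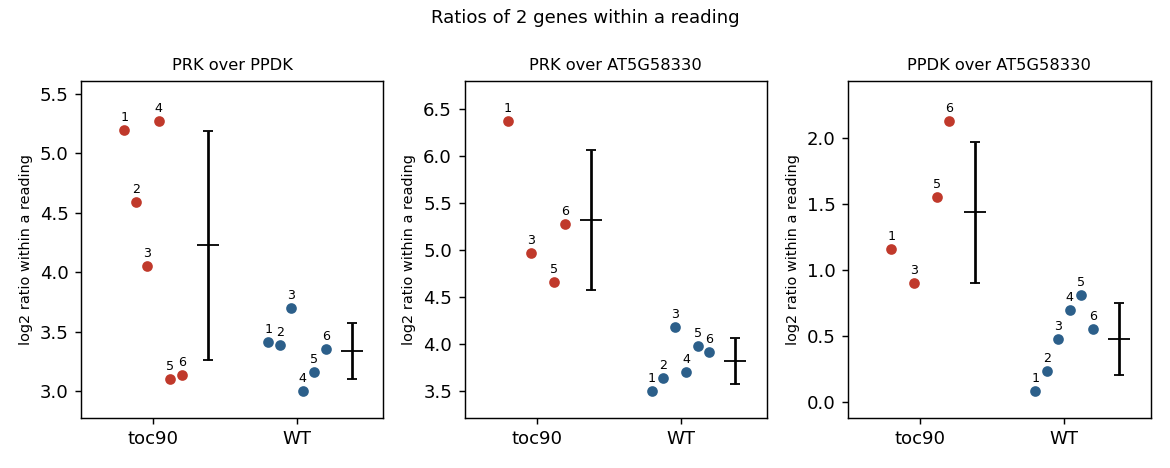
Log2 ratios of 2 genes within a reading, for toc90 and WT, 1 point a reading labelled with its number and the mean ± SD in black. Readings 2 and 4 of toc90 are missing from the ratios with AT5G58330, whose toc90 points all lie above the WT points, while PRK over PPDK overlaps through numbers 5 and 6.

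Of the wider pathway, few genes could be read. A list of 102 genes covered the Calvin cycle, pyruvate and phosphoenolpyruvate, malate and dicarboxylates, plastid sugar phosphate transport, photorespiration, starch synthesis and thioredoxin regulation. Of these, 7 lay on a single-gene probe, the 4 enzymes and 3 others, and none of the genes listed for photorespiration or starch synthesis did. In the limma fit 6 of the 7 could be tested, and 0 were higher and 0 lower (limma, 1 of them, AT5G58330, at an unadjusted p under 0.05), against 6.92% and 17.0% of all probes. The median log2 difference of the 6 was -0.07, beside -0.21 over all probes tested. With median scaling 1 of the 6 was higher, NTRC at 0.82 (limma adjusted p = 0.0173), and 1 lower, AT5G58330, against 16.0% and 12.6% of all probes. On probes above 0 in all 12 readings NTRC was at 0.52 (limma adjusted p = 0.0350), where 16.1% of probes were called higher. With normalization within each ID place NTRC was at 0.14 (limma adjusted p = 0.635), and with values as deposited at 0.13 (limma adjusted p = 0.640). The call of NTRC thus depended on the scaling. With values as deposited 0 were higher and 2 lower, AT5G58330 and PPDK, against 3.16% and 33.3% of all probes.

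AT5G17630, which encodes the xylulose 5-phosphate translocator of the plastid envelope, had 3 toc90 readings at 0. Its values in toc90 were 0, 0.00632, 0, 0, 0.0323 and 0.0486, against 0.0261, 0.0349, 0.0666, 0.0280, 0.0619 and 0.0547 in WT. Of the toc90 readings 4 were under the lowest WT reading, and numbers 5 and 6 lay within the WT range. It averaged 0.0145 ± 0.0209 in toc90 and 0.0454 ± 0.0179 in WT (SD, n = 6 each, exact permutation p = 0.0238 two-sided, adjusted over 3333 probes 0.0624). The limma fit, without the zeros, gave 0.46 ± 0.62 (SE, limma adjusted p = 0.627), the opposite sign.

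The 2 remaining genes came from the list for thioredoxin regulation. AT2G04700, which encodes the catalytic subunit of ferredoxin-thioredoxin reductase, averaged 0.197 ± 0.0792 in toc90 and 0.199 ± 0.0580 in WT (SD, n = 6 each, exact permutation p = 0.944 two-sided). Its toc90 readings ran from 0.121 to 0.330 and its WT readings from 0.0979 to 0.254, so the groups overlapped. NTRC, an NADPH-dependent thioredoxin reductase with its own thioredoxin domain, averaged 0.527 ± 0.09 in toc90 and 0.485 ± 0.0982 in WT (SD, n = 6 each, exact permutation p = 0.452 two-sided). Numbers 1 and 2 of NTRC were lower in toc90 than in WT and numbers 5 and 6 were higher, by 0.286 and 0.221. Their log2 differences in limma were 0.53 ± 0.29 (SE, limma adjusted p = 0.200) and 0.29 ± 0.21 (SE, limma adjusted p = 0.324). Without number 4 of WT, its lowest reading there, AT2G04700 stood at 0.30 (limma adjusted p = 0.346). Relative to the median log2 difference of all probes, AT2G04700 stood at 0.74 and NTRC at 0.50.

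**Figure D5:**
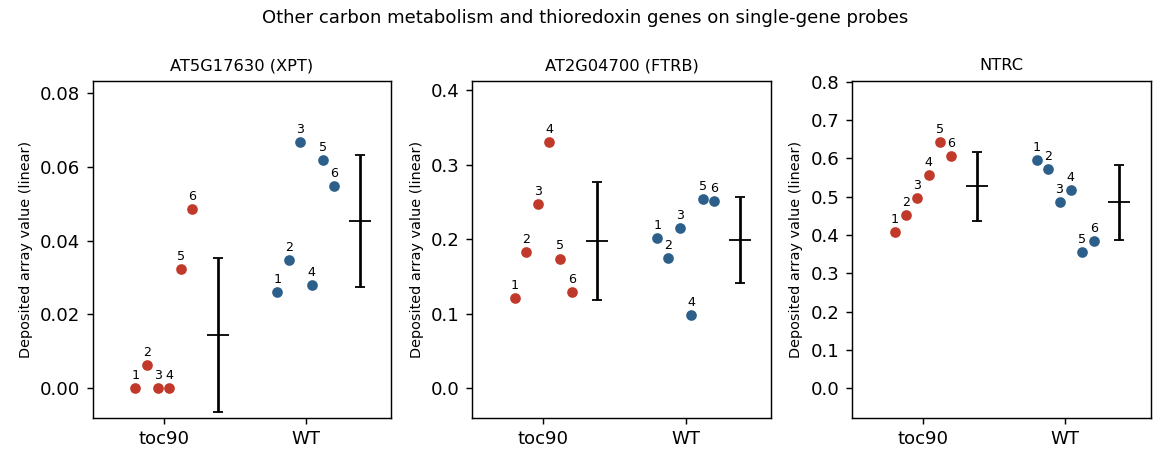
Deposited array values (linear scale, vertical axes differ by panel) of AT5G17630, AT2G04700 and NTRC in toc90 and WT readings, 1 point a reading labelled with its number, and the mean ± SD of 6 readings in black. AT5G17630 has 3 toc90 readings at 0, and the groups of AT2G04700 and NTRC overlap.

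The genes most like each enzyme across readings were taken from single-gene probes with a value in all 12 readings, by Pearson's r of quantile-normalized log2 values. For AT5G58330, over the 10 readings above 0 and among 275 candidates, they were AT5G14590 (r = 0.955), a member of the isocitrate dehydrogenase family, AT3G52070 (r = 0.840) and the histone H3-like AT1G13370 (r = 0.835). With each group's mean removed, r was 0.943, 0.705 and 0.890. AT5G14590 averaged 0.139 ± 0.0534 in toc90 and 0.296 ± 0.0289 in WT (SD, n = 6 each), so it too was lower in toc90 on the deposited scale and had a narrow spread in WT. The choice by r over both groups favours genes with a like group difference. Of all probes with a WT mean from 0.2 to 0.4, 59.5% were lower at an exact permutation p under 0.05. For PPDK, over 12 readings and among 274 candidates, they were AT5G42070 (r = 0.814), AT5G10920 (r = 0.748), which encodes an argininosuccinate lyase, and AT1G61590 (r = 0.720). For PRK they were SECE1 (r = 0.745), a subunit of the thylakoid Sec translocase, AT5G53920 (r = 0.744) and AT1G18290 (r = 0.721). With each group's mean removed, r was 0.773, 0.688 and 0.793 for PPDK and only 0.645, 0.583 and 0.528 for PRK. These are descriptions over few readings that share arrays, and the highest of so many values of r is high by selection.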

How the data were processed

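Total RNA was measured in 6 toc90 and 6 WT readings, grouped and numbered by their titles. The authors deposited intensity values per probe, between 0 and 100 from the values themselves. The scanner, background step and scaling are not stated in the labels, so no depth or detection limit is known. Genes were named from the platform annotation and a TAIR10.1 gene table by gene ID (690 of 692 single-gene probes matched). No coordinates or sequences were used.

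Members, lists, tests and alternatives were chosen with earlier results of these data known. Named genes were the 4 enzymes, each listed gene on a single-gene probe, and the 3 single-gene probes most correlated with each enzyme.

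Deposited values were compared, two-sided and with zeros included, by exact permutation over all assignments of the readings. For all probes, log2 values with zeros missing were quantile normalized and tested with limma 3.58.1 (lmFit, eBayes; R 4.3.3), given at least 3 positive values a group, with Benjamini-Hochberg adjustment over 2687 probes and a threshold of 0.05. Ratios within a reading were tested by exact permutation. Both tests were run on simulated data first. Alternatives covered scaling, zeros, dim probes, blocks, averages and each reading left out. Python 3.11.15 and matplotlib 3.10.9 were used.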

Additional observations from a re-analysis of the deposited data

How the results depend on the processing

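The causes were not tested. Against 186 higher and 457 lower limma calls, higher calls were 431 with median scaling, 85 with values as deposited, 118 with the number as a replicate block, 30 with neighbouring numbers averaged and 68 with neighbours as a random block. Lower calls were 896 with values as deposited, 173 with cyclic loess, 93 with zeros at the lowest positive value, 239 with an offset of 0.0137, 300 with the replicate block, 77 with averages, 209 with the random block and 182 on probes above 0 in all 12 readings, the last chosen after seeing the data, as was normalization by ID place. The share of calls that was higher moved from 28.9% to 56.0%, 8.66%, 51.0%, 64.2%, 49.3% and 56.6% with median scaling, values as deposited, cyclic loess, zeros at the lowest positive value, the offset and probes above 0. Leaving out 1 reading gave 141 to 177 higher and 332 to 450 lower calls.

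PRK turned to 0.50 in log2 with median scaling, and to 19.7 in units of the column median. PPDK was called at -1.09 with log2 values as deposited, turned to 0.456 in units of the column median (exact permutation p = 0.277), and was -0.00352 after quantile normalization with zeros. AT5G58330 was called at -1.08 with median scaling and -1.84 as deposited. On the linear scale it was -0.502 in units of the column median (exact permutation p = 0.0931) and -0.0549 after quantile normalization with zeros (0.0541). Without 1 reading, the log2 difference ran from -0.54 to -0.35 for PRK, -0.61 to -0.27 for PPDK and -1.11 to -0.50 for AT5G58330. The deposited difference ran from -0.507 to -0.00702, -0.132 to -0.0967 and -0.147 to -0.123. With zeros at the lowest positive value AT5G58330 was -5.10 ± 2.83 (SE, limma adjusted p = 0.278). Cyclic loess could not be fitted for it.

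With neighbouring numbers averaged, 3 against 3 cannot go below an exact permutation p of 0.1: PPDK at -0.113, AT5G58330 at -0.131, PRK over AT5G58330 at 1.62 and PPDK over AT5G58330 at 0.827 all had 0.1. Neighbouring WT readings deviated together across 1474 probes (r of 0.43, 0.50 and 0.52), and those of toc90 at 0.13, -0.08 and 0.35. Between groups, readings of 1 number had r of 0.08 to 0.25. With 1 of 6 under 0.1, a limit set by choice, the numbers were not taken as pairs. Readings of unlike number were not compared between groups, so this does not exclude a pairing. With same-number differences as a replicate block, the deposited differences of PPDK and AT5G58330 were -0.113 and -0.131 (exact permutation p = 0.0312 each, the smallest possible), and the 4 usable numbers gave the ratios of PRK and PPDK over AT5G58330 1.43 and 0.957 (exact permutation p = 0.125 each, the smallest possible). The limma replicate block changed no call of the enzymes. Without 1 reading the ratios ran from 0.681 to 1.11 for PRK over PPDK, 1.15 to 1.72 for PRK over AT5G58330 and 0.731 to 1.14 for PPDK over AT5G58330.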
